A study of Homo sapiens with 2 samples.

Results

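The Iroquois homeobox genes are 6 human genes, IRX1 to IRX6, each found once by name among the 36601 genes of a single-cell RNA count table. The table came from 1 culture of HES2, an established human embryonic stem cell line, differentiated towards sinoatrial node-like pacemaker cells, which the labels abbreviate SANLPC. Its 2 libraries, 1 of polyadenylated RNA and 1 of barcode tags on an antibody against CD34, were made from the same live singlet cells, so there was no second culture, no untreated culture and no replicate. Cells were kept at 1000 or more detected genes, at most 25% mitochondrial counts and at most 35000 RNA counts, which left 11211 of 14829 barcodes. Counts are of unique molecular identifiers (UMIs), each standing for 1 captured transcript read near its 3' end. Each interval given is an exact 95% interval for counting error, and with 1 culture no difference could be tested.

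Cells were compared in 3 classes drawn with marker genes and without any Iroquois gene. Cardiomyocytes (5516 cells) had at least 2000 UMIs of TNNT2 per 1000000 RNA UMIs (CPM), TNNT2 being the gene of cardiac troponin T. Fibroblast-like cells (617) had under 1000 CPM of TNNT2 and at least 2000 CPM of the collagen gene COL1A1. Epithelial-like cells (4046) had under 1000 CPM of both and at least 5 UMIs of VTCN1, GATA3, CLDN4 and WNT6 together. The other 1032 kept cells met none of these rules. Median depth was 16209 RNA UMIs in cardiomyocytes, 18537 in fibroblast-like cells and 17452.5 in epithelial-like cells, and 449 kept cells lay between 1000 and 2000 CPM of TNNT2. The classes carried their own markers. Cardiomyocyte markers were at a ratio of 2 or more over epithelial-like cells for 10 of 10 genes, and fibroblast or mesenchymal markers in fibroblast-like over epithelial-like cells for 7 of 8. Epithelial markers were at 0.5 times or less in cardiomyocytes relative to epithelial-like cells for 10 of 10, and markers of amnion or surface ectoderm for 9 of 10, the exception being ISL1, a pacemaker gene too, at 202% of the epithelial-like level. Some markers in these lists also chose the classes.

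Iroquois proteins are transcription factors with a TALE-class homeodomain, a DNA-binding fold with an extra loop that also occurs in the MEIS, PBX and TGIF proteins. In vertebrates most of the genes lie in a pair of clusters that arose by duplication, and neighbours in a cluster often share domains of expression. They pattern the nervous system, limb and heart. In the mouse heart Irx4 marks ventricular muscle, Irx3 serves fast conduction in the ventricular conduction system and Irx5 sets a gradient of repolarizing potassium current across the ventricular wall, while the sinoatrial node is formed by other factors such as SHOX2 and TBX3.

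The reference annotation (RefSeq, GRCh38.p14) held all 6 genes. IRX4 (chr5:1877413-1887179), IRX2 (chr5:2735635-2751677) and IRX1 (chr5:3595832-3601403) form the cluster on chromosome 5, over 1723991 bases. IRX3 (chr16:54283304-54286787), IRX5 (chr16:54930865-54934485) and IRX6 (chr16:55324203-55330756) form that on chromosome 16, over 1047453 bases. C5orf38, named IRX2-DT in the annotation, is a divergent transcript that starts on the opposite strand 215 bases away from the start of IRX2, and the long noncoding RNA gene CRNDE lies 1978 bases from IRX5. RefSeq upstream windows matched 3 of the 6 genes, IRX1, IRX2 and IRX4, whose levels went together across the cell classes. The sequences upstream of the starts of these 3 are shown 5' to 3' on the strand of the gene, since the other members had no window. Capitals mark the GC box GGGCGG on either strand, an element bound by SP-family factors. IRX4 has 3 starts in the table, and the sequence before the outermost is given. The stretch of IRX2 is the whole interval between its start and that of C5orf38, so both genes read out of it in opposite directions.
IRX1, chr5:3595582-3595831, plus strand: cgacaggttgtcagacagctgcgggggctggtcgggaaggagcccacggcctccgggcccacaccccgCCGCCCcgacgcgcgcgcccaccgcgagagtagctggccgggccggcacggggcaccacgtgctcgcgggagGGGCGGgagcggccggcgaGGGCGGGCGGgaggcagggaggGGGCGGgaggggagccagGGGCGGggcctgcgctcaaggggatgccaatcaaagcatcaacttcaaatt
IRX2, chr5:2751678-2751892, minus strand: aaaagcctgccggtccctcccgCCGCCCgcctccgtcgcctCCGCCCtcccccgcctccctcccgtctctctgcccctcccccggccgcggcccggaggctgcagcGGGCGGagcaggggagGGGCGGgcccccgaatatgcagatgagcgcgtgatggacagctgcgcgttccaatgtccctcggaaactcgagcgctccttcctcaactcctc
IRX4, chr5:1887180-1887429, minus strand: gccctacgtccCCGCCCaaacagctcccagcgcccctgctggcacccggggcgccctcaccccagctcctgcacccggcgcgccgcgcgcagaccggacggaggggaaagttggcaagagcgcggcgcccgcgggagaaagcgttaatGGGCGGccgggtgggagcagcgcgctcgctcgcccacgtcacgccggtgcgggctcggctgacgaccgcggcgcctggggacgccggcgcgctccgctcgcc

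All 3 stretches were rich in G and C, at 75.2% for IRX1, 72.6% for IRX2 and 77.6% for IRX4, against a median of 58.0% over the 35116 windows of 250 bases in the table. The GC box occurred 6 times upstream of IRX1, counting overlapping matches, 4 times upstream of IRX2 and 2 times upstream of IRX4. It occurred at least once in 42.6% of all windows. The AP-2 motif GCCNNNGGC, a site of the epithelial and amnion factors TFAP2A and TFAP2C, was found 2 times upstream of IRX1 and in neither of the other stretches, against 19.8% of all windows. The GATA motif AGATAA, the Iroquois motif ACANNTGT and the TATA box TATAAA were found in none of the 3, against 9.17%, 4.71% and 10.7% of all windows. CCAAT was found 1 time each upstream of IRX1 and IRX2, against 32.0% of all windows. Both strands were searched for each motif.

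The chromosome 5 genes went together across the classes, and the chromosome 16 genes did not. IRX1, IRX2 and IRX4 were highest in epithelial-like cells, IRX5 was highest in fibroblast-like cells, IRX3 was found in both of these classes, and cardiomyocytes held little of any member. IRX6 was barely detected in the culture.

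**Figure D1:**
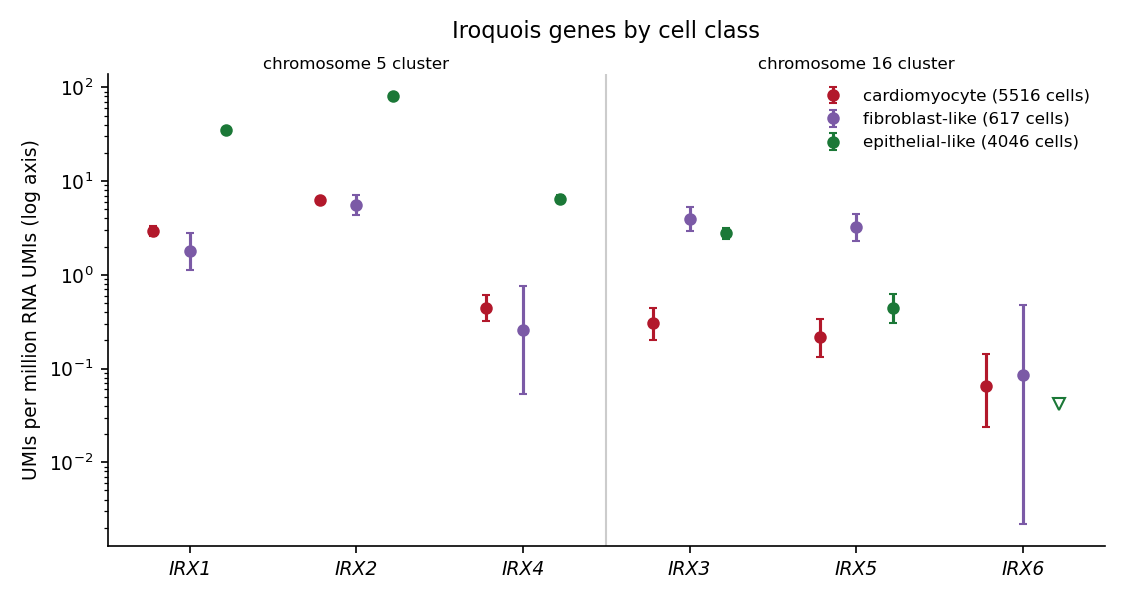
CPM on a log axis for each gene in cardiomyocytes, fibroblast-like and epithelial-like cells, with exact 95% Poisson intervals. The chromosome 5 genes are highest in epithelial-like cells, with IRX2 at 80.6 CPM, and IRX5 is highest in fibroblast-like cells at 3.28 CPM. The open triangle is the floor of 3 counts, 0.0418 CPM, for IRX6 in epithelial-like cells, where no UMI was counted.

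IRX2 was measured at 6.23 CPM in cardiomyocytes (5.73 to 6.76, 573 UMIs), 5.61 CPM in fibroblast-like cells (4.33 to 7.15, 65 UMIs) and 80.6 CPM in epithelial-like cells (78.5 to 82.7, 5785 UMIs). IRX1 was measured at 2.97 CPM in cardiomyocytes (2.63 to 3.34, 273 UMIs), 1.81 CPM in fibroblast-like cells (1.12 to 2.77, 21 UMIs) and 35.5 CPM in epithelial-like cells (34.1 to 36.9, 2549 UMIs). IRX4, in other vertebrates a gene of ventricular muscle, was measured at 0.446 CPM in cardiomyocytes (41 UMIs), 0.259 CPM in fibroblast-like cells (3 UMIs) and 6.46 CPM in epithelial-like cells (5.89 to 7.08, 464 UMIs). All 3 genes were thus far higher in epithelial-like cells than in either other class, by more than counting error. The remaining cells of no class lay between, with 9.79 CPM of IRX1, 23.9 CPM of IRX2 and 1.97 CPM of IRX4, and 22.9% of them held at least 5 UMIs of the 4 epithelial genes.

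IRX3 was measured at 0.304 CPM in cardiomyocytes (0.202 to 0.440, 28 UMIs), 3.97 CPM in fibroblast-like cells (2.90 to 5.29, 46 UMIs) and 2.77 CPM in epithelial-like cells (2.40 to 3.18, 199 UMIs). IRX5 was measured at 0.217 CPM in cardiomyocytes (20 UMIs), 3.28 CPM in fibroblast-like cells (2.32 to 4.50, 38 UMIs) and 0.446 CPM in epithelial-like cells (32 UMIs). Both were lowest in cardiomyocytes, but they differed in the epithelial-like class, where IRX3 was near its fibroblast-like level and IRX5 was not. IRX6, known best from the mouse retina, gave 6 UMIs in 3 cardiomyocytes, 1 UMI in 1 fibroblast-like cell and 0 UMIs in 4046 epithelial-like cells. By the floor of 3 counts used for a count of 0, in place of an interval, the last value allows up to 0.0741% of cells with a UMI and up to 0.0418 CPM. IRX6 is not compared further. Shares of cells are given below, but at such levels they follow the level and the depth. Fewer cells with a gene and less of it in each cell were therefore not separated.

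A gene counted as measured in a comparison at 1 CPM or more in the higher class, as higher at a ratio of 2 or more and as lower at 0.5 or less. In cardiomyocytes over epithelial-like cells 4 of 6 members were measured, IRX1 to IRX4. All 4 of these were lower and 0 were higher, where 18.0% of the 15196 measured genes were lower and 17.6% were higher. The ratios were 0.0836 for IRX1 (0.0735 to 0.0948), 0.0773 for IRX2 (0.0709 to 0.0843), 0.110 for IRX3 (0.0712 to 0.164) and 0.0690 for IRX4 (0.0489 to 0.0951). The size of the ratio moved with the filters, and for IRX2 it was 0.0304 with cardiomyocytes drawn at 5000 CPM of TNNT2 or more and 0.137 with no upper limit on RNA UMIs. The median log2 ratio of the measured members was -3.64, against -0.09 over all measured genes.

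In fibroblast-like over epithelial-like cells 5 members were measured. IRX5 was higher, at a ratio of 7.35 (4.47 to 12.2), beside 17.9% of all 15579 measured genes. IRX1 (0.0510, 0.0315 to 0.0782), IRX2 (0.0696, 0.0536 to 0.0888) and IRX4 (0.0400, 0.00823 to 0.118) were lower, beside 12.9% of all measured genes. IRX3 lay between, at 1.43 (1.02 to 1.98). For IRX2 the ratio was 0.0364 with COL1A1 at 5000 CPM or more and 0.129 with no upper limit on RNA UMIs.

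In cardiomyocytes over fibroblast-like cells 4 members were measured, of which 0 were higher and 2 were lower, where 13.4% of the 15525 measured genes were higher and 18.1% were lower. The 2 were IRX3, at a ratio of 0.0767 (0.0462 to 0.125), and IRX5, at 0.0664 (0.0366 to 0.117). IRX1 (1.64, 1.05 to 2.69) and IRX2 (1.11, 0.859 to 1.46) lay between, and for IRX2 the interval included 1. Both ratios moved with the class rules and with the removal of called doublets. They were 0.995 for IRX1 and 0.561 for IRX2 once called doublets were removed. With cardiomyocytes drawn at 5000 CPM of TNNT2 or more they were 0.671 for IRX1 and 0.436 for IRX2, and with fibroblast-like cells drawn at 5000 CPM of COL1A1 or more they were 4.25 and 2.12.

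Shares of cells were compared after each cell had been thinned at random to 5000 RNA UMIs, which left out 289 cardiomyocytes, 20 fibroblast-like cells and 68 epithelial-like cells of lower depth. IRX2 was detected in 2.41% of cardiomyocytes (2.01 to 2.86%, 126 of 5227), 1.84% of fibroblast-like cells (0.923 to 3.27%, 11 of 597) and 33.1% of epithelial-like cells (31.6 to 34.6%, 1317 of 3978). Unthinned, it was detected in 6.45% of cardiomyocytes, 8.27% of fibroblast-like cells and 68.8% of epithelial-like cells, with up to 9 UMIs in 1 epithelial-like cell. IRX1 was detected in 1.05% of cardiomyocytes, 0.503% of fibroblast-like cells and 597 of the 3978 epithelial-like cells, and IRX4 in 0.191% of cardiomyocytes, 0.168% of fibroblast-like cells and 3.22% of epithelial-like cells. IRX3 was detected in 0.153% of cardiomyocytes (0.0661 to 0.301%), 2.68% of fibroblast-like cells (1.54 to 4.32%) and 1.38% of epithelial-like cells (1.04 to 1.80%), and IRX5 in 0.134% of cardiomyocytes, 1.34% of fibroblast-like cells and 0.151% of epithelial-like cells. These shares of IRX5 in cardiomyocytes and in epithelial-like cells rest on 7 and 6 cells, too few to show that they are alike. Unthinned, 19 of 5516 cardiomyocytes and 31 of 4046 epithelial-like cells held an IRX5 UMI, a larger share in the epithelial-like class.

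Most epithelial-like cells showed no UMI of the chromosome 5 genes at this depth. After thinning, 55.8% held none of IRX1, IRX2 and IRX4, 26.4% held IRX2 alone, 9.07% held IRX1 alone and 5.53% held IRX1 and IRX2 without IRX4. All 3 were found together in 11 cells, 0.277% (0.138 to 0.494%). At this depth most transcripts at such levels are missed, so a cell without a UMI is not shown to lack the gene.

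Cardiomyocytes held the chromosome 5 genes mainly in cells that also held epithelial transcripts. Of the 5516 cardiomyocytes, 421 had at least 5 UMIs of VTCN1, GATA3, CLDN4 and WNT6 together, and these 421 carried 448 of the 573 IRX2 UMIs, 222 of the 273 IRX1 UMIs and 31 of the 41 IRX4 UMIs. Their level of IRX2 was 44.1 CPM (40.1 to 48.4), against 1.53 CPM (1.27 to 1.82) in the 5095 cardiomyocytes under 5 such UMIs. The ratio between them was 28.9 for IRX2 (23.6 to 35.5) and 35.1 for IRX1 (25.8 to 48.5). Of the chromosome 16 genes, IRX3 was also found more in the 421 cells. They included 14 of the 22 cardiomyocytes with an IRX3 UMI, and the 5095 held 13 of the 28 IRX3 UMIs. IRX5 had 0.295 CPM in the 421 cells and 0.208 CPM in the 5095, on 3 and 17 UMIs, and showed no such contrast at this depth.

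Doublet calls went with these genes. A doublet is a droplet that caught more than 1 cell, and Scrublet, which scores cells against simulated mixtures, called 548 cardiomyocytes. Of 356 cardiomyocytes with an IRX2 UMI, 68.3% were called (63.1 to 73.1%), against 5.91% of 5160 without one (5.28 to 6.59%). Median depth was 23007.5 UMIs with and 15917 without. The share called was 71.5% for cells with an IRX1 UMI, 74.4% with an IRX4 UMI, 77.3% with an IRX3 UMI (17 of 22 cells) and 36.8% with an IRX5 UMI (7 of 19 cells). In fibroblast-like cells it was 51.0% with and 3.36% without an IRX2 UMI, but 6.06% with and 7.36% without an IRX3 UMI. For IRX5 in that class it was 20.6% with a UMI (8.70 to 37.9%, 7 of 34 cells) and 6.52% without. In epithelial-like cells it was 1.65% with and 1.58% without an IRX2 UMI.

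**Figure D2:**
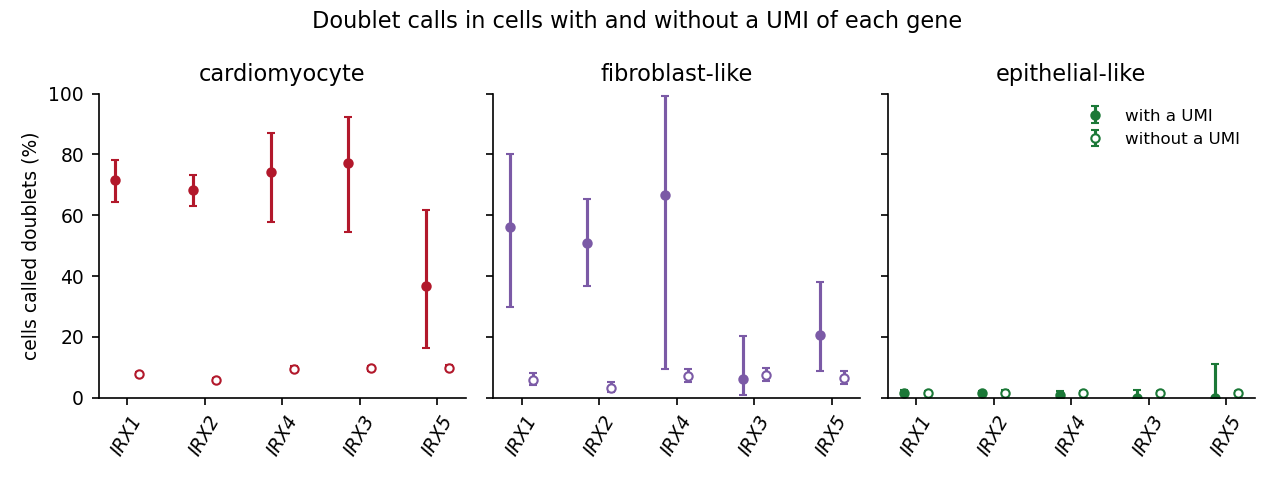
Share of cells called doublets, in percent with exact 95% binomial intervals, among cells with a UMI of each gene (filled) and without one (open), by class. In cardiomyocytes the share is 68.3% with an IRX2 UMI and 5.91% without, and in epithelial-like cells 1.65% and 1.58%.

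Without called doublets the levels in cardiomyocytes were 1.63 CPM of IRX2 (1.36 to 1.94), 0.747 CPM of IRX1, 0.127 CPM of IRX4 and 0.0633 CPM of IRX3, so that the 4 ratios to the 4046 epithelial-like cells were between 0.0196 and 0.0228. In fibroblast-like cells without called doublets IRX2 was at 2.91 CPM, while IRX3 at 4.13 CPM and IRX5 at 2.91 CPM were close to the values with them. In the 49 fibroblast-like cells with at least 5 epithelial UMIs, IRX2 was at 41.1 CPM and IRX5 at 8.60 CPM (9 UMIs in 9 cells), against 2.09 CPM of IRX2 and 2.75 CPM of IRX5 (29 UMIs) in the 568 others. IRX3 was at 0.955 CPM in the 49 cells (1 UMI) and at 4.27 CPM in the 568.

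The low level in cardiomyocytes was about the same fraction of the epithelial-like level for the chromosome 5 genes as for epithelial markers. It was 8.36% for IRX1 (7.35 to 9.48%), 7.73% for IRX2 (7.09 to 8.43%), 6.90% for IRX4 (4.89 to 9.51%) and 7.11% for C5orf38 (6.30 to 8.01%). For the 9 epithelial markers that did not choose the class it ran from 6.06% (KRT7) to 17.3% (KRT8), with a median of 7.56%. For the 7 amnion or surface ectoderm markers that did not choose it the median was 7.01%, with ISL1 at 202%. Among cardiomyocytes that had under 5 epithelial UMIs and were not called doublets, it was 1.72% for IRX1, 1.85% for IRX2 and 1.77% for IRX4. The medians of these 9 epithelial and 7 amnion or surface ectoderm markers were then 2.04% and 1.53%. The 9 ran from 1.08% (CLDN6) to 12.8% (KRT8), with EPCAM at 12.5%, and the 7 from 1.34% (IGFBP3) to 210% (ISL1). These cells were selected for few epithelial UMIs, so lower levels of epithelial genes in them are in part fixed by the choice. The number of UMIs of IRX1 per 100 UMIs of IRX2 was 47.6 in cardiomyocytes (41.1 to 55.1), 32.3 in fibroblast-like cells (18.8 to 53.5) and 44.1 in epithelial-like cells (42.0 to 46.2), so these did not differ beyond counting error. The part of mixed droplets and of free RNA in the cardiomyocyte values was not tested separately.

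**Figure D3:**
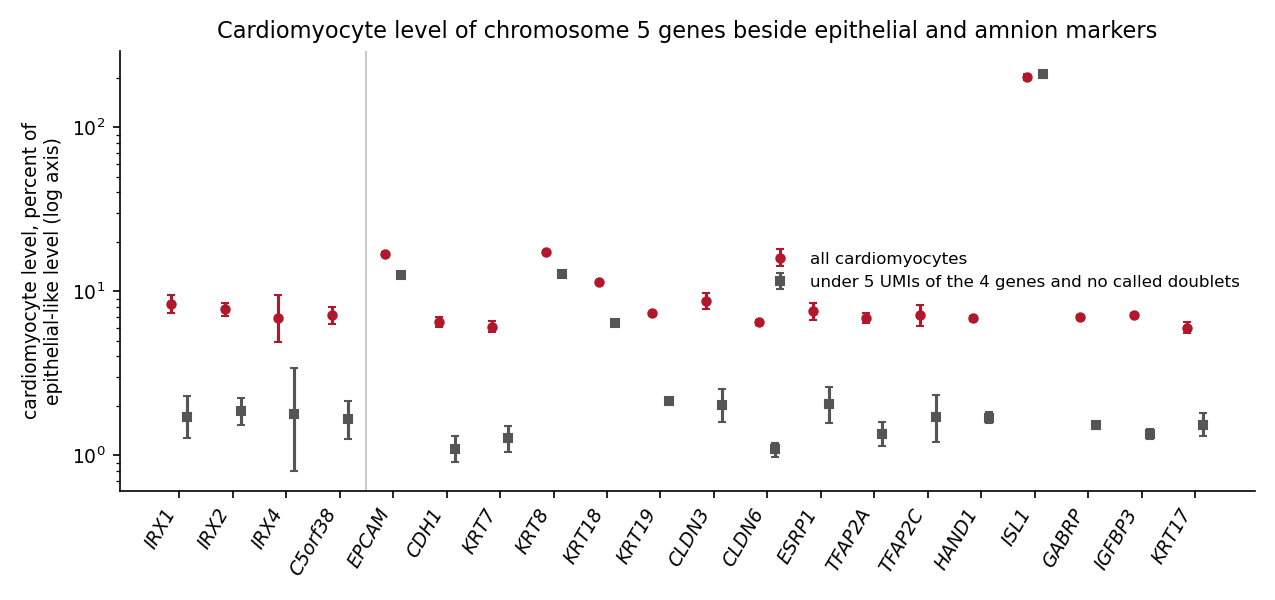
Level in cardiomyocytes as a percent of that in epithelial-like cells, on a log axis with exact 95% intervals, for 3 Iroquois genes and C5orf38 (left of the line) and for the 16 epithelial and amnion or surface ectoderm markers that did not choose the classes. Circles are all cardiomyocytes and squares those under 5 epithelial UMIs without called doublets, where IRX2 is at 1.85%.

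Grouping the kept cells by expression, with the 6 genes left out of the grouping, gave 20 clusters, numbered 0 to 19. IRX2 ranged up to 100.1 CPM (cluster 4) and IRX1 up to 57.4 CPM in the same cluster. Among clusters made up mainly of cardiomyocytes, cluster 7 stood apart with 45.3 CPM of IRX2 and 22.8 CPM of IRX1, and 97.8% of its 496 cells were called doublets. In the other 9 such clusters IRX2 ran from 1.05 to 3.60 CPM. The highest of these was cluster 14, on 2 UMIs and under its floor of 3 counts at 5.40 CPM. The next was cluster 12, at 2.56 CPM (28 UMIs). Cluster 17 was made up of 184 cardiomyocytes led by the working-muscle genes NKX2-5 and NPPA. It held 3 UMIs of IRX2 and no UMI of IRX1, IRX3, IRX4, IRX5 or IRX6. The floor of 3 counts there was 1.05 CPM, so a count of 0 does not show that a gene was absent.

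**Figure D4:**
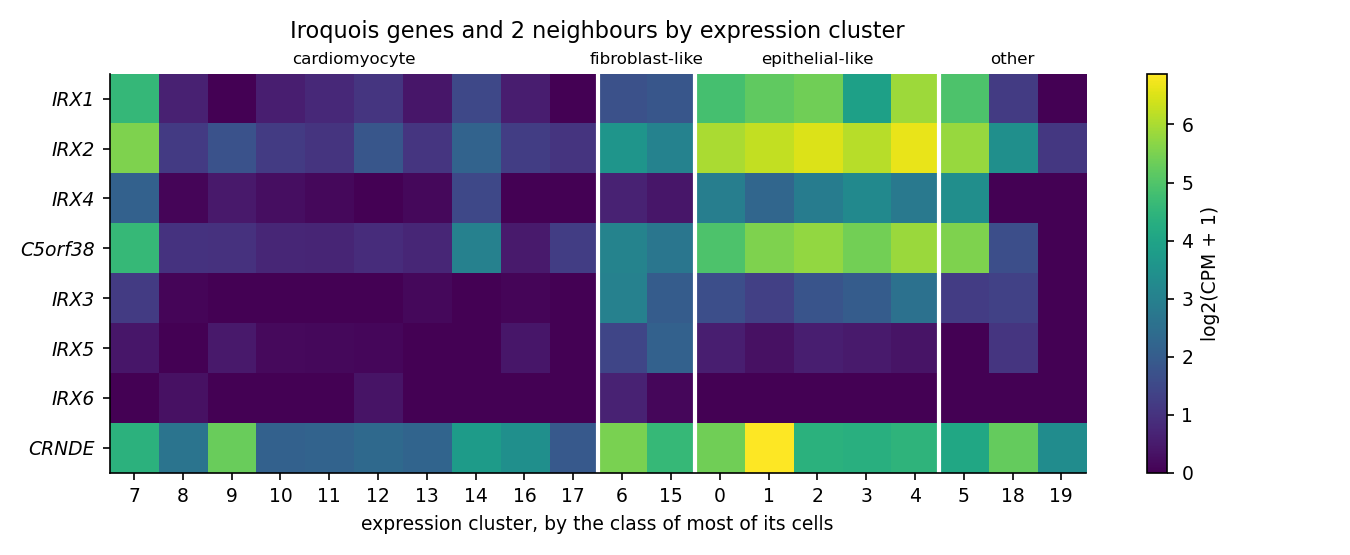
Level of the 6 Iroquois genes, C5orf38 and CRNDE as log2(CPM + 1) in 20 expression clusters, ordered by the class of most of their cells. IRX1, IRX2, IRX4 and C5orf38 are high in the epithelial-like clusters and in clusters 5 and 7, where IRX2 is at 55.4 and 45.3 CPM.

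Within the epithelial-like class the chromosome 5 genes did not keep 1 ratio. Clusters 0 and 1 held cells in the S phase and in mitosis by their leading genes, cluster 2 was led by XAGE2 and NPY, cluster 3 by the keratin gene KRT17 and cluster 4 by PRSS12 and KCNJ2. IRX1 was at 58.2 CPM in cluster 4 (53.6 to 63.0) and 14.3 CPM in cluster 3 (12.2 to 16.7), a ratio of 4.06 (3.41 to 4.86) between its highest and lowest clusters. IRX2 ran only from 63.5 CPM in cluster 0 to 100.3 CPM in cluster 4, a ratio of 1.58 (1.45 to 1.72). IRX4 was highest in cluster 3, at 8.99 CPM (7.34 to 10.9), where IRX1 was lowest, and lowest in cluster 1 (29 UMIs), a ratio of 2.37 between them (1.56 to 3.71). IRX3 was highest in cluster 4, at 4.97 CPM (3.71 to 6.51), and lowest in cluster 1, at 1.57 CPM (0.812 to 2.74). For each gene the highest and lowest clusters were picked by these same counts, and the intervals of the ratios make no allowance for that choice.

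Counts of IRX1 per 100 counts of IRX2 were 20.5 in cluster 3 (17.2 to 24.3) and 58.0 in cluster 4 (52.4 to 64.2), with 43.9, 47.5 and 45.6 in clusters 0, 1 and 2. Counts of IRX4 per 100 of IRX2 were 12.9 in cluster 3 (10.4 to 15.8) and 5.71 in cluster 4 (4.33 to 7.42), the opposite order. C5orf38 stayed closer to IRX2, with 47.8 in cluster 0 and between 56.5 and 60.8 per 100 in the other 4 clusters.

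**Figure D5:**
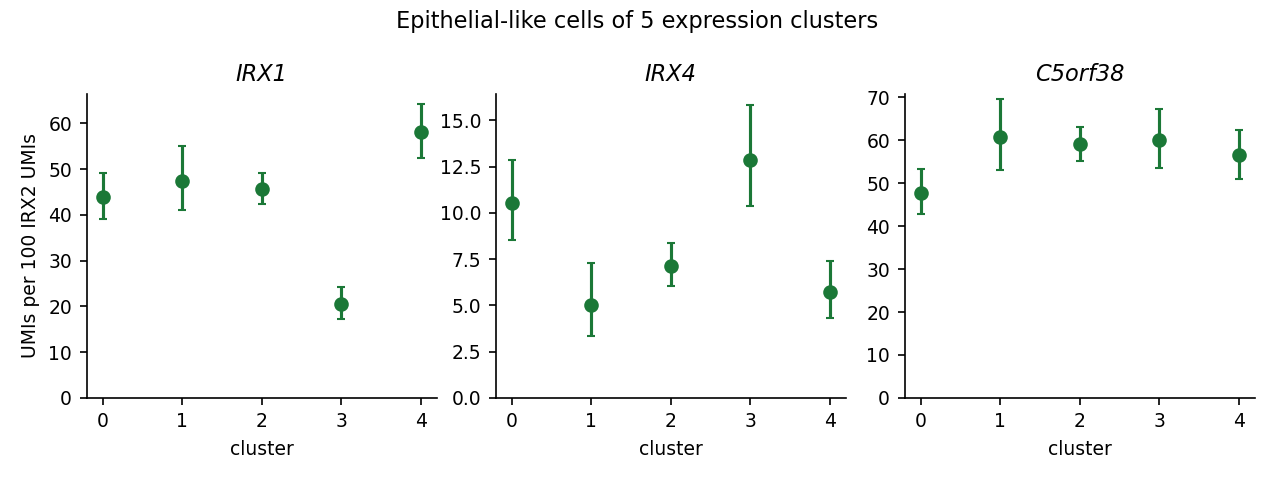
UMIs of IRX1, IRX4 and C5orf38 per 100 UMIs of IRX2 in the epithelial-like cells of 5 expression clusters, with exact 95% intervals. IRX1 is lowest in cluster 3 (20.5) and highest in cluster 4 (58.0), and IRX4 is highest in cluster 3 (12.9).

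In fibroblast-like cells IRX3 differed by cluster and IRX5 did not beyond counting error. Of these cells, 502 lay in cluster 15, led by LAMP5 and the complement gene C7, and 78 in cluster 6, led by POSTN and the limb and mesenchyme factor PITX1. IRX3 was at 9.28 CPM in cluster 6 (5.41 to 14.9, 17 UMIs) and 2.76 CPM in cluster 15 (1.79 to 4.08, 25 UMIs), a ratio of 3.36 (1.70 to 6.48). IRX5 was at 3.28 CPM in cluster 6 (6 UMIs) and 3.53 CPM in cluster 15 (32 UMIs), a ratio of 0.927 (0.317 to 2.25).

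Co-detection was counted within each class after thinning, for 6 pairs inside a genomic cluster and 9 pairs between clusters. Expected counts are the product of the shares of each gene in the class. Only 5 pairs, all in epithelial-like cells, had an expected count of 5 or more. IRX1 and IRX2 were found together in 231 epithelial-like cells against 197.6 expected, a ratio of 1.17 (1.02 to 1.33). IRX2 was detected in 38.7% of cells with IRX1 and 32.1% of cells without it. IRX2 and IRX4 were found together in 47 cells against 42.4 expected (1.11, 0.815 to 1.47), and IRX1 and IRX4 in 16 against 19.2 (0.833, 0.476 to 1.35), so neither pair departed from the product by more than counting error.

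Between clusters, IRX1 and IRX3 were found together in 18 epithelial-like cells against 8.25 expected, a ratio of 2.18 (1.29 to 3.45), while IRX2 and IRX3 were found together in 19 against 18.2 (1.04, 0.628 to 1.63). With expected counts summed over the expression clusters, the ratio was 1.13 (0.993 to 1.29) for IRX1 and IRX2 and 1.91 (1.13 to 3.01) for IRX1 and IRX3. IRX1 with IRX3, from different chromosomes, thus had a higher ratio than any of the 3 countable pairs within the chromosome 5 cluster, although its interval overlapped theirs. IRX3 and IRX5 shared 1 fibroblast-like cell against 0.214 expected, and no pair within the chromosome 16 cluster reached an expected count of 5.

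In cardiomyocytes IRX1 and IRX2 were found together in 12 cells against 1.33 expected, a ratio of 9.05 (4.68 to 15.8). With expected counts summed over the expression clusters, 9.90 were expected and the ratio was 1.21 (0.626 to 2.12). Among cardiomyocytes under 5 epithelial UMIs they shared 1 cell. In fibroblast-like cells IRX2 and IRX5 shared 3 cells against 0.147 expected, and 1 cell against 0.0365 expected among those under 5 epithelial UMIs, a ratio whose interval (0.694 to 152.7) included 1.

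C5orf38 followed the chromosome 5 genes across classes, at 3.27 CPM in cardiomyocytes (2.91 to 3.66), 3.71 CPM in fibroblast-like cells (43 UMIs) and 46.0 CPM in epithelial-like cells (44.5 to 47.6). Within epithelial-like cells it was found together with IRX2 in 296 cells against 271.8 expected, a ratio of 1.09 (0.968 to 1.22). CRNDE did not follow IRX5 across the whole classes. It was at 8.73 CPM in cardiomyocytes, 27.1 CPM in fibroblast-like cells and 35.5 CPM in epithelial-like cells. Among epithelial-like cells it was at 41.5 and 119 CPM in clusters 0 and 1, led by S phase and mitosis genes. In clusters 2, 3 and 4 it was at 20.3, 19.4 and 20.7 CPM, below the fibroblast-like level. MMP2, a matrix protease gene beyond IRX6, was at 24.5 times its epithelial-like level in fibroblast-like cells (22.6 to 26.6), and FTO, whose introns hold enhancers of IRX3 in human and mouse, at 1.85 times (1.65 to 2.07). Reads from C5orf38 and IRX2 come from opposite strands and do not overlap in the annotation.

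Across the 20 clusters, the genes whose level on the log2(CPM + 1) scale was most like IRX1 were SCNN1A (Pearson r = 0.99), a subunit of the epithelial sodium channel, MACC1, RAB27B, a GTPase of vesicle secretion, CLDN4, a tight junction protein, and TFAP2C. Those most like IRX2 were HAPLN1 (r = 0.99), a hyaluronan link protein, CLDN4, CNDP2, AMOT and TFAP2B. Those most like IRX4 were ANKRD34B (r = 0.97), RASEF, DOP1B, SLC16A6 and SLCO2A1, a prostaglandin transporter. CLDN4 is among the genes that chose the epithelial-like class. Of the members, IRX1 and IRX2 had r = 0.97, IRX1 and IRX4 0.93, IRX2 and IRX4 0.92, IRX2 and IRX3 0.78 and IRX2 and IRX5 0.22. C5orf38 ranked 55 of 10116 genes for likeness to IRX2 (r = 0.97). These values describe 20 groups of cells that share 1 RNA library.

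Inside the epithelial-like class few genes differed between cells with and without an IRX2 UMI after thinning. In full counts 2782 of the 4046 epithelial-like cells held one, so many cells counted as without IRX2 still held it. Ratios near 1 are thus in part fixed by the split and do not show that few genes go with IRX2. Cells with an IRX2 UMI after thinning (1317) were compared with those without (2661) over 3371 genes at 50 CPM or more, and 1 gene, IRX2 itself, which chose the cells, reached a ratio of 2 (0.0297%). The highest of the rest was LINC02381, at 79.4 CPM with and 64.4 CPM without an IRX2 UMI, a ratio of 1.23 (1.16 to 1.31), followed by CRABP1, a retinoic acid binding protein, at 1.21 (1.15 to 1.27). The lowest were the S phase and mitosis genes HIST1H1B at 0.715 (0.678 to 0.754) and CDK1 at 0.716 (0.667 to 0.768). None of the 9 epithelial markers measured reached 2. IRX1, below that limit, was at 43.1 CPM with and 31.8 CPM without an IRX2 UMI, a ratio of 1.36 whose interval lay above 1.

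Cardiomyocytes gave another picture. Of 3591 genes, 211 (5.88%) were at a ratio of 2 or more in the 126 cardiomyocytes with an IRX2 UMI over the 5101 without, among them 7 of the 7 epithelial markers measured. The leading genes were CYP1B1, at 62.5 CPM with and 6.09 CPM without an IRX2 UMI, a ratio of 10.3 (8.61 to 12.2), PRSS12 at 10.2 (8.72 to 11.8) and P2RY6 at 10.1 (8.41 to 12.0). TNNT2 was at 4474 CPM with and 6816 CPM without an IRX2 UMI, and median depth was 21933 UMIs with and 16489 UMIs without one. Without called doublets the number of epithelial markers was 3, and among cardiomyocytes under 5 epithelial UMIs it was 0.

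The surface level of CD34 in cardiomyocytes, read from the antibody tag, did not set Iroquois levels apart at the limits used, a ratio of 0.8 or less for lower and the inverse of that or more for higher. CD34-high cells, at or above 279 tag UMIs (1380), had 6.34 CPM of IRX2 and CD34-low cells, at or below 45 (1403), 5.17 CPM, a ratio of 1.23 (0.951 to 1.59). IRX1 had 3.35 CPM where CD34 was high and 2.79 CPM where it was low, a ratio of 1.20 (0.846 to 1.72). Of the 6 members 2 were measured, and 0 were higher and 0 lower, beside 10.3% and 13.1% of 14643 measured genes. TBX3 was at 379 CPM in the CD34-high and 74.3 CPM in the CD34-low cells. The epithelial genes moved the same way as IRX2, with WNT6 at a ratio of 1.45 (1.29 to 1.65) and GATA3 at 1.26 (1.07 to 1.49). The share of called doublets was 11.5% at high and 5.99% at low CD34. In cardiomyocytes without called doublets and under 5 epithelial UMIs, with the tag limits drawn again in those cells, the direction turned, with 1.18 CPM of IRX2 in the CD34-high cells (25 UMIs) and 2.24 CPM in the CD34-low cells (38 UMIs), a ratio of 0.527 (0.305 to 0.896).

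Of 12 relatives in the wider TALE homeobox family 11 were measured in cardiomyocytes over epithelial-like cells, with 1 higher and 1 lower and a median log2 ratio of -0.19. TGIF1, a repressor of TGF-beta and retinoid signals, was at 19.8 CPM in cardiomyocytes and 102.7 CPM in epithelial-like cells (0.193, 0.183 to 0.203). PBX4 was the higher one, at 1.19 CPM in cardiomyocytes and 0.139 CPM in epithelial-like cells. MEIS2 was at 207.0 CPM in cardiomyocytes and 213.6 CPM in epithelial-like cells. In fibroblast-like over epithelial-like cells, where the median was 0.12 against -0.04 over all measured genes, 3 were higher and 2 lower. MEIS3 was at 73.4 CPM in fibroblast-like and 7.90 CPM in epithelial-like cells (9.29, 8.35 to 10.4) and PBX3 at 157.1 CPM in fibroblast-like and 30.4 CPM in epithelial-like cells (5.17, 4.86 to 5.51), in the class where IRX5 was highest. In cardiomyocytes over fibroblast-like cells 0 were higher and 4 lower, with a median of -0.61 against -0.08.

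Of 14 genes reported as partners or targets of Iroquois factors in heart, mostly in mouse, 13 were measured in cardiomyocytes over epithelial-like cells, with 9 higher and 2 lower and a median log2 ratio of 2.42. SMYD1, a muscle methyltransferase, was at 108.5 CPM in cardiomyocytes and 2.65 CPM in epithelial-like cells, and TBX5 at 149.1 CPM in cardiomyocytes and 3.58 CPM in epithelial-like cells. The 2 lower genes were the potassium channel gene KCND2, which Irx5 represses in mouse ventricle, and the vitamin D receptor gene VDR. KCND2 was at 1.14 CPM in cardiomyocytes and 10.8 CPM in epithelial-like cells (0.106, 0.0853 to 0.130). VDR was at 0.370 CPM in cardiomyocytes and 5.06 CPM in epithelial-like cells. Over fibroblast-like cells 9 of 13 were higher and 3 lower, with a median of 3.29. The connexin gene GJA1 was at 5.08 CPM in cardiomyocytes and 55.5 CPM in fibroblast-like cells. In fibroblast-like over epithelial-like cells 10 were measured, 4 higher and 2 lower, with a median of 0.07. Many genes of this list are known as genes of heart muscle.

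Lists of muscle genes gave the class its setting. All 8 pacemaker genes were higher in cardiomyocytes than in epithelial-like cells, with a median log2 ratio of 4.81, as were 5 of 8 atrial genes (median 4.44). Besides IRX4, 6 of 7 ventricular genes were measured, of which 4 were higher and 1 lower, with a median of 3.87. IRX4 itself was lower. The 4 were MYL3, CKM, FHL2 and MYH7, the last at only 3.93 CPM in cardiomyocytes, where the atrial gene MYH6 was at 6772 CPM. The lower gene was HAND1, which is also in the amnion or surface ectoderm list. In cardiomyocytes HEY2, which lay between, was at 0.576 CPM, and MYL2, the gene not measured, was at 0.163 CPM (15 UMIs). Of markers of other cell types, 1 of 5 endothelial and 0 of 4 blood genes were measured in that comparison. Fibroblast-like cells also held markers of other types, whose part in their Iroquois levels was not tested. Of 5 endothelial markers 2 were measured in them over epithelial-like cells and both were higher, KDR at 24.5 CPM and EMCN at 7.07 CPM in fibroblast-like cells, while the defining gene CDH5 had no UMI and PECAM1 had 1. Of 5 neural markers 1 was measured, STMN2, at 146.1 CPM in fibroblast-like and 0.348 CPM in epithelial-like cells, while ELAVL4 and SOX2 had no UMI in fibroblast-like cells. Of 8 epicardial markers 7 were measured, with 4 higher and 1 lower and a median log2 ratio of 3.29, among them WT1 at 13.5 CPM in fibroblast-like and 0.529 CPM in epithelial-like cells.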

How the data were processed

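Live singlet cells of 1 HES2 culture gave an RNA library and a CD34 antibody-tag library, which share their cell barcodes. The values are raw UMI counts per gene and barcode as deposited. The submitters' processing notes name Cell Ranger 6.1.2 and GRCh38, and other settings are not given in the sources used here. With 1 culture there was no replication, and no p-value or standard deviation was computed. UMIs were summed over the cells of a class and divided by the RNA total to give CPM. Levels carry exact Poisson intervals, ratios exact conditional binomial intervals and shares exact Clopper-Pearson intervals. These treat UMIs as independent and cover counting error only.

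Doublets were called with Scrublet in scanpy 1.11.5 (1291 of 12119 barcodes scored, 795 of them among the kept cells), kept in the main values and removed as an alternative. Clusters were made with the Leiden method at resolution 1, on 2000 variable genes, 30 components and 15 neighbours. Ratio, thinning and co-detection steps were tested on simulated data.

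The members, class rules, markers and lists were chosen with earlier results of these data known, and the 4 genes that draw the epithelial-like class also sort cardiomyocytes by epithelial UMIs, a split added after seeing the data. Named genes are the 6 members, their neighbours, the listed genes, the 5 genes of highest likeness to each member at 5 CPM or more in a class, and the highest and lowest genes beside IRX2 UMIs. Alternatives changed class limits, cell filters, thinning depth, doublets, scaling, tag limits and cluster resolution. Barcodes outside the filters (1975 under 1000 genes, 1207 over 25% mitochondrial, 908 over 35000 UMIs, some under more than 1 rule) were left out.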

Additional observations from a re-analysis of the deposited data

Results flagged for a closer look

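Barcodes left out of every comparison held IRX2 as well, and are given because they lie outside the main measurement. The 908 barcodes above 35000 RNA UMIs held 42.9 CPM of IRX2 (41.0 to 44.9, 1835 UMIs). The 1975 barcodes with under 1000 genes held 27.3 CPM (21.2 to 34.6, 68 UMIs). The 735 barcodes left out for mitochondrial counts above 25% alone held 8.63 CPM (6.11 to 11.9, 38 UMIs). All 3 values exceed the floor of 3 counts, and no untreated culture was there to set them against.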

How the results depend on the processing

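Of 389 alternative values, 285 kept their call or moved by less than counting error, and 104 moved. No member called higher or lower changed direction. Of 219 ratios of members, 19 lay on the other side of 1 than the main value, all of them ratios not called, in cardiomyocytes over fibroblast-like cells, in CD34-high over CD34-low cardiomyocytes and in co-detection. For IRX2 the first was 1.11 and ran from 0.436 to 2.12 under the alternatives, and the CD34 ratio was 1.23 but lay below 1 under each of its 4 alternatives, down to 0.620. The counts of members higher or lower in cardiomyocytes over epithelial-like cells (0 and 4) and in fibroblast-like over epithelial-like cells (1 and 3) kept to within 1.5 times under the alternatives run. Members higher in cardiomyocytes over fibroblast-like cells numbered 0, but 1 with the other classes under 500 CPM of TNNT2, 2 with COL1A1 at 5000 CPM or more and 1 at 2000 or more genes and at most 15% mitochondrial counts. The share of cells with an IRX2 UMI followed depth. In cardiomyocytes it was 1.39% at 3000, 3.89% at 10000 and 6.45% without thinning, 0.703% without called doublets and 0.644% under 5 epithelial UMIs. In fibroblast-like cells it was 4.29% at 10000, 8.27% without thinning and 0.730% under 5 epithelial UMIs. In epithelial-like cells it was 20.8% at 3000, 51.9% at 10000 and 68.8% without thinning. Against 0 members lower in CD34-high cardiomyocytes, 2 were lower with the tag per RNA UMI, 2 without called doublets and 1 with mean CPM per cell. Against 0 higher, 1 was higher with narrower groups at the ends of the tag range. Epithelial markers higher in cardiomyocytes with an IRX2 UMI numbered 7, against 3 without called doublets and 0 under 5 epithelial UMIs. The last number is in part fixed by the choice of cells with few epithelial UMIs. Beyond the effect of fewer transcripts or cells, the cause of these shifts was not tested. No paired analysis was possible because the study holds 1 culture. Members under 1 CPM, such as IRX6, rest on too few UMIs to compare.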

Other observations

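Cluster 5 belonged to no class for most of its 199 cells and was led by the endoderm and liver genes AFP, FGB and FGG, at a median depth of 2506 UMIs. It held 55.4 CPM of IRX2 (39.8 to 75.2, 41 UMIs), 29.7 CPM of IRX1 (22 UMIs) and 9.46 CPM of IRX4 (7 UMIs), and 19.6% of its cells had at least 5 UMIs of the 4 epithelial genes. Cluster 18, led by LHX9 and PCP4, held 9.76 CPM of IRX2 (45 UMIs) and no UMI of IRX4 in 230 cells. Cluster 19, 42 cells led by the mesothelial gene ITLN1, held 1 UMI of IRX2 and none of the other members.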
